A study of Mus musculus with 8 samples.

Results

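The 37 genes described here carry glucose from the cell surface to lactate or to the mitochondrion, together with the oxygen-sensing factor Hif1a and 5 of its known target or feedback genes. They were taken from a count table of 24573 genes by matching the table's Entrez gene identifiers to the mouse symbols, and all 37 were found. By step they comprise 3 glucose transporters, 10 genes of upper glycolysis (hexokinase to aldolase, with the enzymes that set fructose-2,6-bisphosphate), 9 genes of lower glycolysis (triosephosphate isomerase to pyruvate kinase), 4 lactate genes, 5 genes of pyruvate dehydrogenase control and 6 hypoxia genes. A filter on low counts left 36 of them among the 12420 genes tested. The glucose transporter Slc2a3 did not pass, with 2 to 9 estimated counts in each library.

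Glycolysis splits glucose into pyruvate. Lactate dehydrogenase turns pyruvate into lactate, which leaves through monocarboxylate transporters, or the pyruvate dehydrogenase complex turns it into acetyl-CoA, and the pyruvate dehydrogenase kinases shut that complex off by phosphorylating it. When oxygen is low, prolyl hydroxylases no longer mark HIF-1 alpha for destruction, and HIF-1 then binds short DNA elements near many genes of this route and raises their transcription. Proliferating myoblasts rely largely on glycolysis and move towards oxidative metabolism as they fuse into muscle fibres.

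RNA had been measured in 8 libraries of C2C12 cells, an established mouse myoblast line, kept dividing below confluence in DMEM with 10% calf serum. All cells had been transduced with lentivirus in 8 µg/ml polybrene, selected with 2 µg/ml puromycin and held in 1 µg/ml puromycin, so the controls carried virus and drug as well. There were 4 groups of 2 libraries: a scramble shRNA as control, and 1 shRNA each against Brd9, Baf250A or Baf180, which are subunits of 3 different forms of the SWI/SNF chromatin remodelling complex (Baf250A is the protein of Arid1a, and Baf180 that of Pbrm1). With 1 shRNA per target, loss of the target and an off-target effect of its shRNA cannot be told apart. The labels give neither the shRNA sequences nor any sign that the 2 libraries of each group are independent cultures. The p-values therefore rest on a library-to-library spread that could be purely technical. No oxygen level, medium glucose or lactate measurement is given.

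Library totals ran from 17763062 to 20400855 estimated counts. The targeted gene was lower in both of its knockdown libraries: Brd9 had 717 and 637 counts in scramble against 157 and 135 under its shRNA, Arid1a 2834 and 2720 against 1335 and 1243 under the Baf250A shRNA, and Pbrm1 876 and 969 against 65 and 86 under the Baf180 shRNA. All 10 myoblast markers were detected, with a summed level of 1903 to 1940 CPM in scramble, 1722 to 2080 CPM in Brd9, 1185 to 1358 CPM in Baf250A and 2626 to 3589 CPM in Baf180 knockdown (CPM, the count divided by the TMM-scaled library total and expressed on a common scale). Des was the largest part of that sum in every library, and the markers did not move together: 4 were called higher in Brd9, 1 higher and 4 lower in Baf250A, and 6 higher and 2 lower (Myf5 and Met) in Baf180 knockdown. Libraries also stood apart by the GC content of the transcripts: over the 1229 tested genes with a GC content of at most 42.3%, the median log2 deviation from the mean of all libraries was -0.18 and -0.01 in scramble, 0.44 and 0.05 in Brd9, 0.48 and 1.06 in Baf250A, and -1.10 and -0.69 in Baf180 knockdown. A second fit removed each library's trend with GC content and gene length by offsets, and its values are given wherever they change a call of a member against scramble. In bulk RNA, a change in the share of some cells and a change per cell cannot be told apart.

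Sequence upstream of the start site is shown for 5 members on which the results below turn: the most lowered (Pfkp) and the most raised (Pdk2) member, the glycolytic enzymes Pgk1 and Ldha, long used as examples of HIF-1 targets, and the hypoxia gene Bnip3. Each is the 250 bases before the annotated start, 5′ to 3′ on the gene's strand, from RefSeq promoters on GRCm38.p6. Capitals mark ACGTG, the core of the HIF element, and GCGTG, its other common form, on either strand (on the opposite strand they read CACGT and CACGC, and CACGTG holds an overlapping ACGTG on each strand).
Pfkp (chr13:6648772-6649021, minus strand): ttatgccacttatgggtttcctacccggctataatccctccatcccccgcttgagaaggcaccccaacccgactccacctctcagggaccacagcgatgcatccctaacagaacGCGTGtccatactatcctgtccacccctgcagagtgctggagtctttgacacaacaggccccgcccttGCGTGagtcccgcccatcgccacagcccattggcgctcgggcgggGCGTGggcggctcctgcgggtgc
Pdk2 (chr11:95041372-95041621, minus strand): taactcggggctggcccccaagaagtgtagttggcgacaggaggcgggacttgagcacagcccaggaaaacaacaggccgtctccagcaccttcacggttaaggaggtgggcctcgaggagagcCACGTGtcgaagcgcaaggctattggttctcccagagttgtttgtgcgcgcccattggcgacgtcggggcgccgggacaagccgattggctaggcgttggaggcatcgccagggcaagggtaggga
Pgk1 (chrX:106186850-106187099, plus strand): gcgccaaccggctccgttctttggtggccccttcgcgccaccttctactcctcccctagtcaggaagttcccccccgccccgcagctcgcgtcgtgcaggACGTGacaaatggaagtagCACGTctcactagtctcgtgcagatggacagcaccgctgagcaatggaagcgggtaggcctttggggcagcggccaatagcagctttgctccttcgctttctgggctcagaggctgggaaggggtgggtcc
Ldha (chr7:46845554-46845803, plus strand): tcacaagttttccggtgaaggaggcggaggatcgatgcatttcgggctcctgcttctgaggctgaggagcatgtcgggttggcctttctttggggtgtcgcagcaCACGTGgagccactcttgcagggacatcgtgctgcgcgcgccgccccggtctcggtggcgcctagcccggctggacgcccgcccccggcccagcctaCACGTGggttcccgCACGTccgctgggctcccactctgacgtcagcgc
Bnip3 (chr7:138909507-138909756, minus strand): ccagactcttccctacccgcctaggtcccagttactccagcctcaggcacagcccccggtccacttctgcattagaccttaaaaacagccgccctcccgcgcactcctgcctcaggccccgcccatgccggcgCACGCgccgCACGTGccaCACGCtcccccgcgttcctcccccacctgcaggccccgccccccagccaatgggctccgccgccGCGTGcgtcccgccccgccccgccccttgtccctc
Matching by symbol found 50 such windows for 35 of the 37 members, several genes having more than 1 start, and none for Slc2a3 or Slc2a4. ACGTG was present in 44.0% of the members' windows and in 16.7% of all 32536 windows of that length in the table. GCGTG was present in 54.0% against 28.3%, at least 1 of the pair in 78.0% against 38.8%, and CACGTG in 14.0% against 6.04%. These are matches of letters and no evidence of binding. Windows of nearby starts overlap in some genes, among them Aldoa and Eno1, and the same match is then counted in each. The set of all windows was not matched to the members by base content or expression, and some members were listed as hypoxia genes. The windows shown for Pfkp, which was lower in Baf250A knockdown, and for Pdk2, which was higher in Baf180 knockdown, both held a match. At least 1 window of 31 of the 35 members did. Pdk2 has another annotated start, whose window is not shown and held neither ACGTG nor GCGTG.

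At an adjusted p below 0.05 over all tested genes, 9 of 36 tested members were called in Brd9 knockdown, 6 higher and 3 lower (25% of the members, beside 10.0% of all tested genes, 6.45% higher and 3.57% lower). In Baf250A knockdown 15 were called, 8 higher and 7 lower (41.7% beside 29.5%, 15.5% higher and 14.0% lower). In Baf180 knockdown 8 were called, 6 higher and 2 lower, or 5 higher and 3 lower with upper-quartile scaling (22.2% beside 34.2%, 17.2% higher and 17.0% lower). The members' median log2 fold change was -0.03, -0.03 and 0.16 in these 3 comparisons, and that of all tested genes 0.04, -0.02 and -0.02. Members went both ways in each, with 18, 17 and 26 of the 36 positive. With the GC and length offsets the medians were -0.25, 0.07 and 0.04, beside -0.06, 0.01 and -0.03. The 3 comparisons share the scramble libraries. Both knockdown libraries lay outside the scramble pair on the same side for 31 members in Brd9, 31 in Baf250A and 23 in Baf180 knockdown, beside 65.0%, 75.8% and 72.0% of all genes. With the GC and length offsets, 18 members were called in Brd9 knockdown, 7 higher and 11 lower (all genes 30.1%, with 11.7% higher and 18.4% lower). The corresponding calls were 16 in Baf250A knockdown, 10 higher and 6 lower (all genes 35.3%, with 17.9% and 17.4%), and 17 in Baf180 knockdown, 10 higher and 7 lower (all genes 38.2%, with 18.0% and 20.2%).

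**Figure D1:**
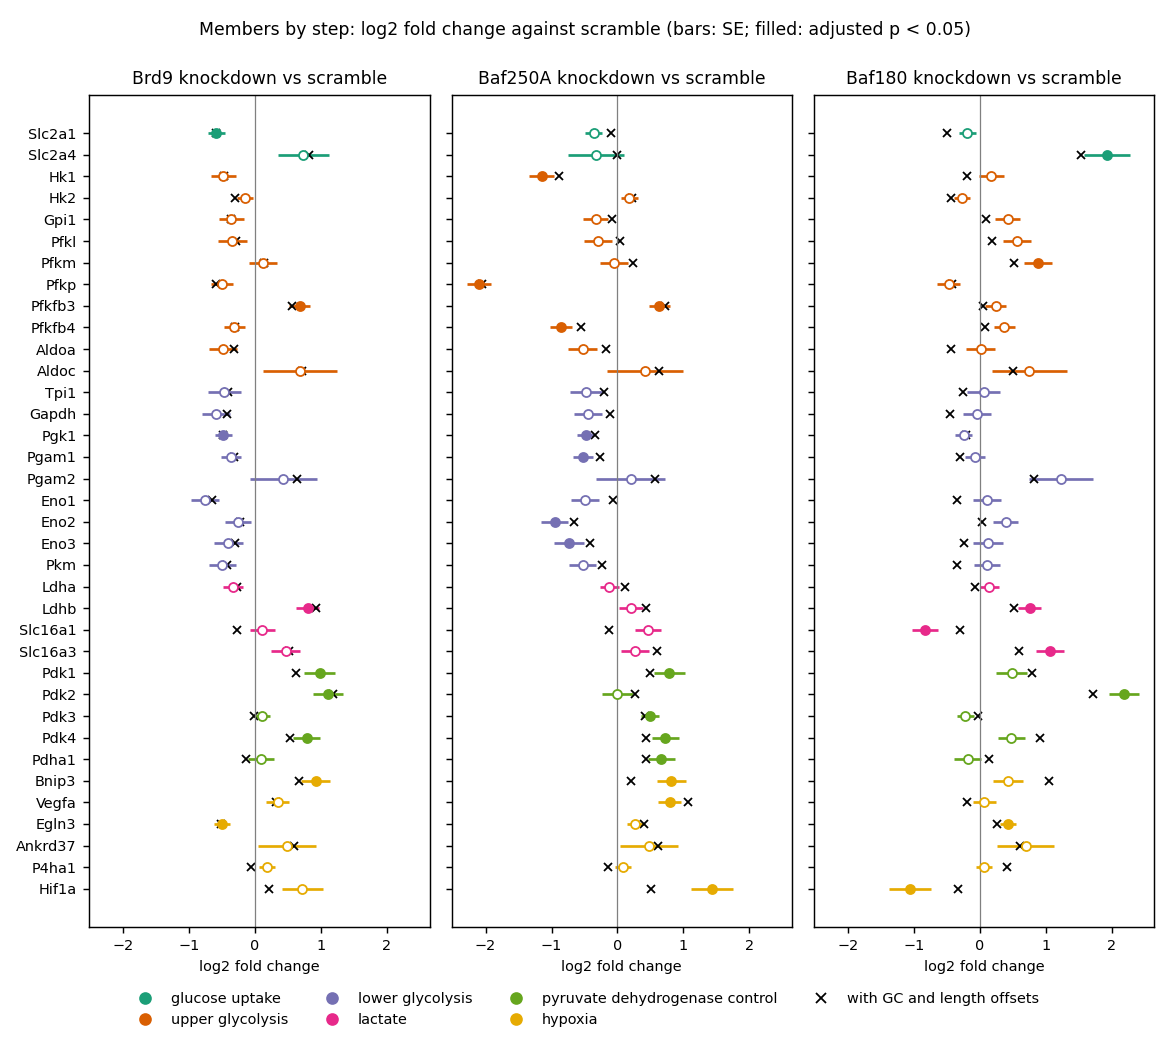
Log2 fold change of the 36 tested members against scramble (x axis), 1 panel for each knockdown, with members in rows ordered and coloured by step. Bars are standard errors, filled circles are members called at an adjusted p below 0.05, and crosses give the value with GC and length offsets: Pfkp in Baf250A and Pdk2 in Baf180 knockdown lie farthest from 0, and Hif1a lies on opposite sides of 0 in those 2 panels.

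Most of these calls were lost in at least 1 fit that left out a library. Leaving out a library of a compared group left 1 library there, so the spread was then estimated from the other groups. A loss in such a fit does not show that the library left out decided the call. Of the 32 calls against scramble, 4 were kept in all 8 fits that left out 1 library: lower Pfkp and Hk1 in Baf250A knockdown and higher Pdk2 and Slc2a4 in Baf180 knockdown. In Brd9 knockdown, 0 members were called by edgeR without scramble replicate 1, without scramble replicate 2 or without Brd9 replicate 1, and 10, 10 and 11 members were then at an unadjusted p below 0.05. DESeq2 on all 8 libraries called 11 members there. Baf250A knockdown kept 3 of its 15 calls without scramble replicate 1, without scramble replicate 2 or without Baf250A replicate 2. Baf180 knockdown kept 3 of its 8 calls without scramble replicate 1, without scramble replicate 2 or without Baf180 replicate 1. The direction of every one of the 32 calls was the same in each of these fits.

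Glucose transporter transcripts were almost wholly those of Slc2a1, the basal transporter GLUT1, which held at least 99.15% of the CPM per kb of the 3 transporters in every library. Slc2a1 CPM was 268 and 269 in scramble, 165 and 191 in Brd9, 221 and 197 in Baf250A, and 242 and 229 in Baf180 knockdown. Every knockdown library lay below both scramble libraries, and the fall was called in Brd9 knockdown (log2 fold change -0.59, SE 0.13, adjusted p = 0.0235). Leaving out scramble replicate 1 or 2 or Brd9 replicate 1 ended the Slc2a1 call (highest adjusted p over the 8 leave-one-out fits 0.201). The values in Baf250A (-0.36, adjusted p = 0.0641) and Baf180 knockdown (-0.19, adjusted p = 0.28) were not called, although Baf180 knockdown was at -0.50 with the offsets (adjusted p = 0.000905).

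Slc2a4, the insulin-responsive transporter GLUT4 of mature muscle and fat, was near the detection limit, with 8 and 10 estimated counts in scramble, 17 and 17 in Brd9, 8 and 8 in Baf250A, and 35 and 35 in Baf180 knockdown. Both Baf180 libraries stood above all others, and Slc2a4 rose 3.8-fold there (log2 1.93, SE 0.35, adjusted p = 0.0046). It was also higher in Baf180 than in Baf250A knockdown (log2 fold change of Baf250A against Baf180 -2.25, adjusted p = 0.000739) and than in Brd9 knockdown (-1.19, adjusted p = 0.0161), the last not called with the offsets (-0.72, adjusted p = 0.1). Summed over 18 myotube markers the level was 86.4 to 91.0 CPM in scramble, 76.3 to 96.3 CPM in Brd9, 42.9 to 49.0 CPM in Baf250A and 135 to 168 CPM in Baf180 knockdown. The sum was carried by Acta1 (skeletal actin) and Actn3, which went opposite ways. Acta1 was at 15.9 and 17.2 CPM in scramble, 9.40 and 13.8 CPM in Brd9, 41.1 and 35.2 CPM in Baf250A, and 114 and 93.7 CPM in Baf180 knockdown, called higher in the last pair of groups. Actn3 was at 70.9 and 65.7 CPM in scramble, 56.2 and 68.7 CPM in Brd9, 5.63 and 4.34 CPM in Baf250A, and 45.9 and 33.6 CPM in Baf180 knockdown, called lower in the same groups. No other marker of the 18 exceeded 2.42 CPM, but 6 of these low markers, among them Myog, Mymk and Tnnt1, were called higher in Brd9 knockdown (DESeq2 called 2). Of the 18, 9 passed the filter on low counts. Myh3, Mymk, Mylpf and Casq2 passed it only through the Brd9 libraries, so their calls there are no test. In that list the muscle creatine kinase Ckm stayed at or below 0.524 CPM and embryonic myosin Myh3 at or below 0.890 CPM in every library. The part of myotube-like cells in the Slc2a4 value was not tested.

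In upper glycolysis, 3 of 10 members fell and 1 rose in Baf250A knockdown, 1 rose in Brd9 knockdown and 1 rose in Baf180 knockdown (all genes 14.0% lower and 15.5% higher in Baf250A, 6.45% higher in Brd9 and 17.2% higher in Baf180 knockdown). With the offsets the counts were 3 lower and 1 higher in Baf250A, 4 lower and 1 higher in Brd9, and 2 lower and 1 higher in Baf180 knockdown, beside the shares over all genes given above for that fit. Pfkp, the platelet-type subunit of phosphofructokinase, the enzyme that commits sugar to glycolysis, had a level of 86.2 and 84.1 CPM in scramble and 21.0 and 18.7 CPM in Baf250A knockdown. The Brd9 libraries (53.6 and 66.7 CPM) and Baf180 libraries (70.1 and 52.8 CPM) lay between, with no overlap between either and Baf250A knockdown. Pfkp fell 4.29-fold in Baf250A knockdown (log2 -2.10, SE 0.18, adjusted p = 9.94e-05), with log2 values of -2.06 under the offsets and -2.12 to -1.96 in the leave-one-out fits. Its values in Brd9 (-0.50, adjusted p = 0.0924) and Baf180 knockdown (-0.47, adjusted p = 0.0606) were not called, but with the offsets Pfkp fell in Brd9 knockdown as well (-0.59, adjusted p = 0.0254). The difference itself was called: Pfkp was lower in Baf250A than in Brd9 knockdown (log2 -1.60, adjusted p = 0.000429) and than in Baf180 knockdown (log2 -1.63, adjusted p = 0.000161). Exons of Pfkp overlap those of Pitrm1 on the opposite strand by 748 bases, and the labels do not say whether counting used strand.

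Hk1, the hexokinase that traps glucose in the cell, was at 397 and 395 CPM in scramble, 249 and 319 CPM in Brd9, 200.3 and 156 CPM in Baf250A, and 512 and 383 CPM in Baf180 knockdown. Both Baf250A libraries were the lowest of the 8, and Hk1 fell 2.22-fold there (log2 -1.15, SE 0.19, adjusted p = 0.00332; -0.89 with the offsets). In Brd9 knockdown Hk1 was at -0.48 (adjusted p = 0.126) and was called with the offsets (-0.47, adjusted p = 0.00914). Hk2, the other hexokinase, was at 81.8 and 76.1 CPM in scramble, 69.0 and 73.0 CPM in Brd9, 87.1 and 91.9 CPM in Baf250A, and 61.3 and 69.5 CPM in Baf180 knockdown. It was not called against scramble in any knockdown without the offsets (adjusted p from 0.125 to 0.442). With them Hk2 fell in Brd9 (-0.31, adjusted p = 0.0336) and Baf180 knockdown (-0.44, adjusted p = 0.0052). It differed between Baf250A and Baf180 knockdown (0.45, adjusted p = 0.0127). Per kb of transcript, Hk2 thus made up 13.0% of the 2 hexokinases in scramble and 27.7% in Baf250A knockdown, while their summed level was 109.6 and 59.1 CPM per kb.

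The bifunctional enzymes Pfkfb3 and Pfkfb4 set the level of fructose-2,6-bisphosphate, the strongest activator of phosphofructokinase. Pfkfb3 was at 14.7 and 14.2 CPM in scramble, 24.0 and 22.2 CPM in Brd9, 21.1 and 23.7 CPM in Baf250A, and 15.9 and 18.2 CPM in Baf180 knockdown. It rose in Brd9 (log2 0.68, SE 0.16, adjusted p = 0.0312) and in Baf250A knockdown (0.63, SE 0.16, adjusted p = 0.0189), whose 4 libraries all exceeded the other 4. Pfkfb4 was at 16.4 and 15.8 CPM in scramble, 12.7 and 13.1 CPM in Brd9, 9.10 and 8.73 CPM in Baf250A, and 21.8 and 20.0 CPM in Baf180 knockdown, and fell in Baf250A knockdown (-0.85, SE 0.16, adjusted p = 0.00623; -0.55 with the offsets). Of the summed CPM per kb of both genes, Pfkfb3 made up 38.6% in scramble, 55.6% in Brd9, 63.8% in Baf250A and 36.4% in Baf180 knockdown, and the sum itself stayed between 7.08 and 9.77 CPM per kb. The Pfkfb3 calls were lost without scramble replicate 1 or 2, either Brd9 replicate (Brd9 call) or Baf250A replicate 2 (Baf250A call), with a highest adjusted p of 0.219 in Brd9 and 0.123 in Baf250A knockdown, and that of Pfkfb4 without scramble replicate 1 or Baf250A replicate 2 (0.0613).

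**Figure D2:**
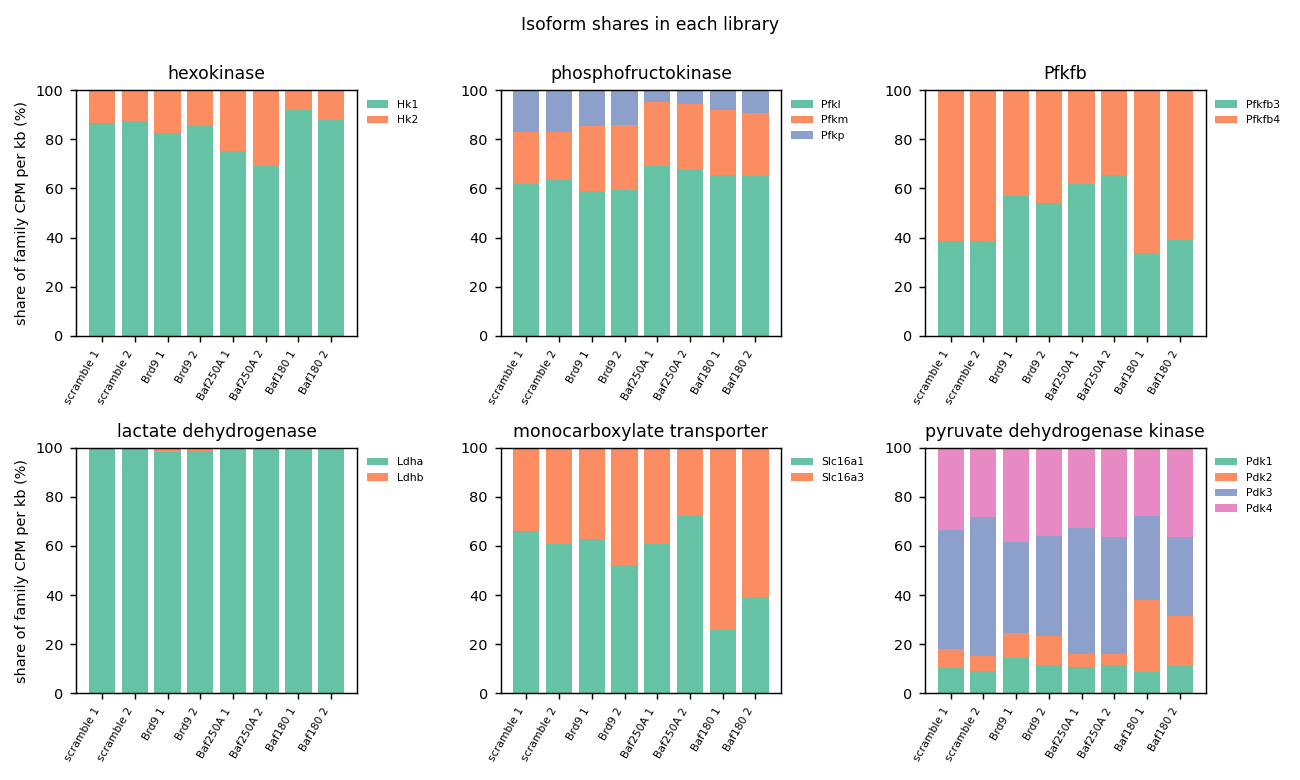
Share of each isoform in the summed CPM per kb of its enzyme or transporter family (y axis, percent, from 0 to 100) in each of the 8 libraries (x axis, group and replicate). The shares use CPM without the GC and length offsets. Pfkp shrinks to 5.38% of phosphofructokinase in Baf250A knockdown, Pfkfb3 is the larger part of its pair in the Brd9 and Baf250A libraries, Slc16a3 is the larger part of the lactate transporters in both Baf180 libraries, and Pdk2 makes up 24.6% of the kinases there.

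Pfkm, the muscle subunit of phosphofructokinase, was at 75.3 and 70.0 CPM in scramble, 69.4 and 88.5 CPM in Brd9, 77.5 and 62.4 CPM in Baf250A, and 160.5 and 107 CPM in Baf180 knockdown. Only the Baf180 libraries lay apart from scramble, with a rise of 0.88 on the log2 scale (SE 0.21, adjusted p = 0.0138; 0.52 with the offsets, adjusted p = 0.0142) that was not called without scramble replicate 1 or 2 or Baf180 replicate 1 (highest adjusted p 0.0961). Of the abundant myotube markers given above, Acta1 was higher and Actn3 lower in the same libraries, and their part was not tested. Among the 3 phosphofructokinase subunits, Pfkp made up 17.1% of the CPM per kb in scramble, 14.5% in Brd9, 5.38% in Baf250A and 8.72% in Baf180 knockdown, and the liver-type Pfkl was the largest part in every library. The other members of this step, Gpi1, Pfkl, Aldoa and Aldoc, were not called against scramble without the offsets, with log2 fold changes from -0.53 to 0.75. With the offsets Aldoa, the main aldolase, fell in Brd9 (-0.33, adjusted p = 0.0355, against -0.48 without) and in Baf180 knockdown (-0.44, adjusted p = 0.00745), where it was at 0.01 without them. Aldoc had at most 22 counts in any library.

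Lower glycolysis held the most abundant members. Gapdh, the dehydrogenase often used as a reference gene, was at 9995 and 10077 CPM in scramble, 5767 and 7579 CPM in Brd9, 8333 and 6450.0 CPM in Baf250A, and 11456 and 7997 CPM in Baf180 knockdown. All 4 Brd9 and Baf250A libraries were below scramble and the Baf180 libraries lay on both sides of it. No difference of Gapdh from scramble was called (log2 -0.59, -0.44 and -0.05, adjusted p = 0.106, 0.139 and 0.884). With the offsets it fell by 0.42 in Brd9 (adjusted p = 0.0146) and by 0.45 in Baf180 knockdown (adjusted p = 0.00767).

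Pgk1, phosphoglycerate kinase, which makes the first ATP of the pathway, was at 1159 and 1199.8 CPM in scramble, 778 and 907 CPM in Brd9, 845 and 844 CPM in Baf250A, and 1031 and 961 CPM in Baf180 knockdown. All 6 knockdown libraries lay below scramble, and the fall was called in Brd9 (log2 -0.49, SE 0.13, adjusted p = 0.046) and Baf250A knockdown (-0.48, SE 0.13, adjusted p = 0.023), both lost without scramble replicate 1 or 2 or either Baf250A replicate, and in Brd9 knockdown also without Brd9 replicate 1 (highest adjusted p 0.309 and 0.17). The value in Baf180 knockdown was -0.24 (adjusted p = 0.163). The upstream window of Pgk1 shown above holds 2 separate ACGTG matches.

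Pgam1, Eno2 and Eno3 also fell in Baf250A knockdown, so that 4 of the 9 members of the step fell there, 1 in Brd9 and 0 in Baf180 knockdown (edgeR, beside 14.0%, 3.57% and 17.0% of all genes lower). In Baf180 knockdown 1 member, counted in either direction, was at an unadjusted p below 0.05, and 0 were called by DESeq2. The largest change of the step there was a rise (Pgam2, 1.23), and the lowest value was -0.24. With the offsets the order of the knockdowns was another: 5 members of the step fell in Brd9, 3 in Baf250A and 4 in Baf180 knockdown (all genes 18.4%, 17.4% and 20.2% lower). Pgam1, the main phosphoglycerate mutase, was at 1320.1 and 1281 CPM in scramble, 909 and 1118 CPM in Brd9, 955 and 848 CPM in Baf250A, and 1346 and 1129 CPM in Baf180 knockdown. Its fall in Baf250A knockdown was -0.53 (SE 0.15, adjusted p = 0.0301) and -0.26 with the offsets (adjusted p = 0.0527), which ended the call, as did leaving out any 1 of the scramble or Baf250A libraries (highest adjusted p 0.248). With the offsets Pgam1 instead fell in Brd9 (-0.31, adjusted p = 0.029) and Baf180 knockdown (-0.31, adjusted p = 0.0251). Eno2, the neuronal enolase, was at 7.47 and 8.44 CPM in scramble, 6.50 and 6.81 CPM in Brd9, 4.17 and 4.03 CPM in Baf250A, and 11.2 and 9.60 CPM in Baf180 knockdown. Its fall in Baf250A knockdown was -0.95 (SE 0.20, adjusted p = 0.00913; -0.65 with the offsets), lost without scramble replicate 2 or Baf250A replicate 2 (highest adjusted p 0.0783). The 6 neural markers, with Snap25 at 0 in every library, summed to 523 to 564 CPM in scramble and 42.6 to 43.3 CPM in Baf250A knockdown. That sum was 278 to 313 CPM in Brd9 and 185 to 209 CPM in Baf180 knockdown, below scramble, whereas Eno2 in the Baf180 libraries was above scramble. Nefl, Stmn2 and Tubb3 carried the sum, and all were called lower in Baf250A knockdown. In Brd9 knockdown Nefl alone was called lower, and in Baf180 knockdown Nefl and Stmn2. Nefl was at 273 and 246 CPM in scramble, 48.7 and 52.4 CPM in Brd9, and 1.62 and 2.35 CPM in Baf180 knockdown. The part of the neural markers in the Eno2 value was not tested.

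Eno3, the muscle enolase, was at 636 and 626 CPM in scramble, 405 and 548 CPM in Brd9, 430.3 and 329.6 CPM in Baf250A, and 830.4 and 543 CPM in Baf180 knockdown. The Baf250A libraries were below scramble (log2 -0.73, SE 0.23, adjusted p = 0.0391), lost without scramble replicate 1 or 2 or Baf250A replicate 2 (highest adjusted p 0.268), and the Baf180 libraries lay on both sides of it. Of the abundant myotube markers, Actn3 was lowest in the same Baf250A libraries and Acta1 was above scramble there, and their part was not tested. Pkm, pyruvate kinase, was at 5889 and 6070.2 CPM in scramble, 3655 and 4819 CPM in Brd9, 4636 and 3658 CPM in Baf250A, and 7458 and 5449 CPM in Baf180 knockdown, and was called in none (adjusted p = 0.137, 0.076 and 0.695). With the offsets Pkm fell in Brd9 knockdown (-0.43, adjusted p = 0.0129), and its sign in Baf180 knockdown turned from 0.11 to -0.34 (adjusted p = 0.0257). The remaining members, Tpi1, Pgam2 and Eno1, were not called without the offsets, with log2 fold changes from -0.76 (Eno1 in Brd9 knockdown, adjusted p = 0.0525) to 1.23 (Pgam2 in Baf180 knockdown, adjusted p = 0.0766). With the offsets Eno1, the main enolase, fell in Brd9 (-0.65, adjusted p = 0.00161) and in Baf180 knockdown (-0.34, adjusted p = 0.0271), where it was at 0.11 without them. Gapdh, Pgk1, Pgam1, Aldoa, Ldha and Eno1 have near-identical processed copies in the mouse genome, among them Eno1b, and the labels do not say how counting divided reads between such copies.

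Taking the 19 genes of upper and lower glycolysis, their share of all counts was 2.71% and 2.78% in scramble, 1.88% and 2.33% in Brd9, 2.35% and 1.90% in Baf250A, and 2.87% and 2.38% in Baf180 knockdown. The Brd9 and Baf250A libraries were all below scramble; the Baf180 libraries fell on both sides.

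**Figure D3:**
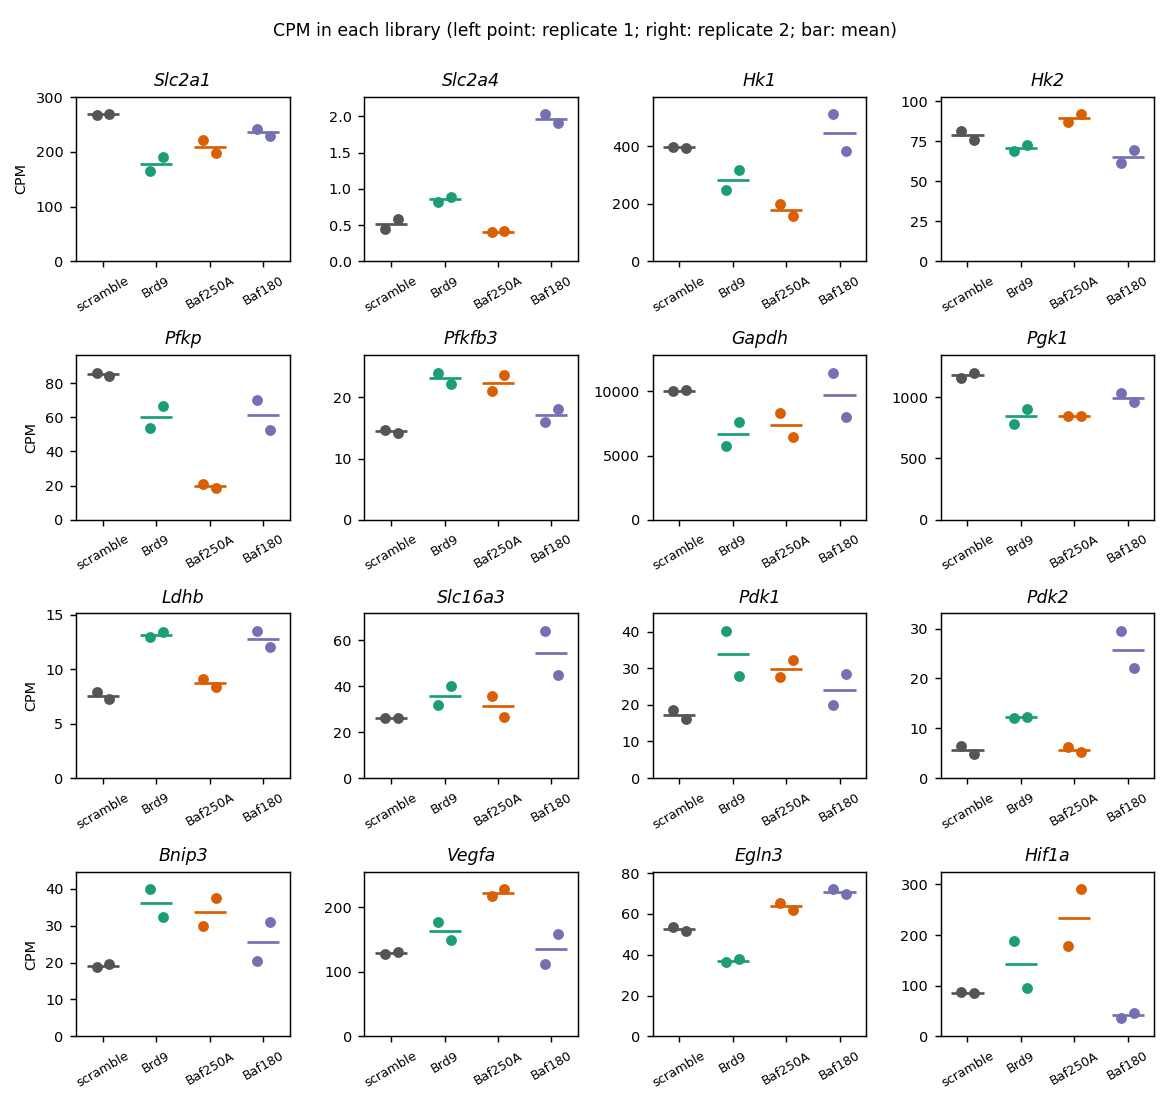
Expression (CPM, linear y axis from 0) of 16 members in each library, with the 2 libraries of a group as points, replicate 1 on the left, and the group mean as a bar. Pfkp and Hk1 are lowest in both Baf250A libraries, Slc2a4 and Pdk2 are highest in both Baf180 libraries, and the 2 libraries of a knockdown lie far apart for Hif1a in Brd9 and Baf250A and for Gapdh in Baf180.

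Of the lactate genes, Ldha, which makes lactate from pyruvate, was at 1404 and 1449 CPM in scramble, 1018 and 1243 CPM in Brd9, 1372 and 1252 CPM in Baf250A, and 1704 and 1447 CPM in Baf180 knockdown. No comparison with scramble was called for it (log2 -0.34, -0.12 and 0.14, adjusted p = 0.163, 0.548 and 0.472). Ldhb, the form that favours the return from lactate to pyruvate, was at 7.86 and 7.28 CPM in scramble, 12.9 and 13.4 CPM in Brd9, 9.10 and 8.36 CPM in Baf250A, and 13.5 and 12.1 CPM in Baf180 knockdown. It rose 1.74-fold in Brd9 (log2 0.80, SE 0.18, adjusted p = 0.025) and 1.69-fold in Baf180 knockdown (0.75, SE 0.18, adjusted p = 0.013), and all 6 knockdown libraries exceeded scramble. The calls were lost without scramble replicate 1 or 2, either Brd9 replicate (Brd9 call) or Baf180 replicate 1 (Baf180 call), with a highest adjusted p of 0.202 and 0.0983. Ldhb nevertheless stayed a small part of the pair, 0.665% of its CPM per kb in scramble and 1.46% in Brd9 knockdown.

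The lactate transporters moved in opposite directions in Baf180 knockdown, of which the rise was kept with the offsets. Slc16a1 (MCT1), which serves uptake and release, was at 90.3 and 72.4 CPM in scramble, 97.2 and 78.3 CPM in Brd9, 99.98 and 124 CPM in Baf250A, and 39.6 and 51.7 CPM in Baf180 knockdown. Slc16a3 (MCT4), the exporter typical of glycolytic muscle, was at 26.1 and 25.9 CPM in scramble, 31.8 and 39.9 CPM in Brd9, 35.8 and 26.7 CPM in Baf250A, and 63.9 and 45.0 CPM in Baf180 knockdown. In the Baf180 libraries Slc16a1 was below and Slc16a3 above every other library. Slc16a3 rose 2.09-fold there (log2 1.07, SE 0.22, adjusted p = 0.00709), with 0.59 under the offsets (adjusted p = 0.00183) and a single loss without scramble replicate 2 (adjusted p = 0.0519). Slc16a1 fell by 0.83 (SE 0.19, adjusted p = 0.0123), but by 0.30 with the offsets (adjusted p = 0.0716), which ended the call, as did leaving out scramble replicate 1 or Baf180 replicate 1 (highest adjusted p 0.0949). The GC content of its transcript is 42.9%, among the lowest of the members. As a share of the pair's CPM per kb without the offsets, Slc16a3 went from 36.6% in scramble to 67.6% in Baf180 knockdown. Its transcript has a GC content of 58.1%. With the trend in GC content and length removed, Slc16a1 was at 98.2 and 76.7 CPM in scramble and 71.4 and 70.7 CPM in Baf180 knockdown. Slc16a3 was then at 26.5 and 25.8 CPM in scramble and 42.4 and 36.5 CPM in Baf180 knockdown, a smaller shift between the pair. Without the offsets neither transporter was called in Brd9 or Baf250A knockdown, and in Baf250A knockdown 0 lactate genes were called by edgeR, 1 was at an unadjusted p below 0.05 and 0 were called by DESeq2. With the offsets Slc16a3 rose in Brd9 (0.52, adjusted p = 0.006) and Baf250A knockdown (0.61, adjusted p = 0.0019), and Ldhb also rose in Baf250A knockdown (0.44, adjusted p = 0.0295), so that Slc16a3 and Ldhb were then called higher in all 3 knockdowns.

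The 5 genes of pyruvate dehydrogenase control gave 8 calls against scramble, 7 of them for the kinases, and all were rises. By knockdown, 3 rose in Brd9, 4 in Baf250A and 1 in Baf180 knockdown (all genes 6.45%, 15.5% and 17.2% higher). With the offsets 3, 4 and 3 rose (all genes 11.7%, 17.9% and 18.0% higher). Pdk2 was at 6.46 and 4.85 CPM in scramble, 12.1 and 12.3 CPM in Brd9, 6.14 and 5.16 CPM in Baf250A, and 29.5 and 22.0 CPM in Baf180 knockdown. The Baf180 libraries were the highest of the 8, the Brd9 libraries came next, and the Baf250A libraries overlapped scramble. The rise was 4.55-fold in Baf180 knockdown (log2 2.19, SE 0.23, adjusted p = 0.000303; 1.72 with the offsets; 1.96 to 2.41 in the leave-one-out fits) and 2.15-fold in Brd9 knockdown (log2 1.10, SE 0.23, adjusted p = 0.0181), the latter lost without scramble replicate 1 or 2 or Brd9 replicate 1 (highest adjusted p 0.17). Of the myotube markers given above, Acta1 was highest in the same Baf180 libraries, where Actn3 was below scramble, and the 6 low markers were called higher in the Brd9 libraries. Among the latter, Myh3, Mymk, Mylpf and Casq2 passed the filter only through the Brd9 libraries, so their calls are no test. The part of the myotube markers in the Pdk2 values was not tested. The steps of that order were called directly: Brd9 against Baf180 knockdown at -1.08 (adjusted p = 0.0063), and Baf250A against Brd9 knockdown at -1.10 (adjusted p = 0.00817), lost without Brd9 replicate 1 (0.051) and without Baf250A replicate 2 (0.0628) respectively. Of the 4 kinases' summed CPM per kb, Pdk2 made up 7.20% in scramble, 10.8% in Brd9, 4.87% in Baf250A and 24.6% in Baf180 knockdown.

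Pdk1, the kinase best known as a HIF-1 target, was at 18.5 and 16.1 CPM in scramble, 40.2 and 27.9 CPM in Brd9, 27.5 and 32.2 CPM in Baf250A, and 19.9 and 28.4 CPM in Baf180 knockdown. All 6 knockdown libraries exceeded scramble, and the rise was called in Brd9 (log2 0.98, SE 0.23, adjusted p = 0.0318) and Baf250A knockdown (0.79, SE 0.23, adjusted p = 0.0319). With the offsets it was called in all 3 knockdowns, at 0.62, 0.50 and 0.79 (adjusted p = 0.00461, 0.0112 and 0.000905). Pdk4, the kinase induced by fasting and fatty acids, was at 40.7 and 33.2 CPM in scramble, 70.3 and 56.9 CPM in Brd9, 55.8 and 66.2 CPM in Baf250A, and 42.3 and 60.5 CPM in Baf180 knockdown. It was called in the same pair of knockdowns (0.78 and 0.72, both SE 0.21, adjusted p = 0.0442 and 0.0282) and, with the offsets, in all 3 (0.53, 0.44 and 0.91, adjusted p = 0.00506, 0.00984 and 0.000154). The 4 calls of Pdk1 and Pdk4 without offsets were lost without scramble replicate 1 or 2, Brd9 replicate 1 (Brd9 calls) or Baf250A replicate 2 (Baf250A calls), with adjusted p up to 0.216 and 0.172 for Pdk1 and 0.271 and 0.181 for Pdk4.

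Pdk3 was at 33.6 and 38.0 CPM in scramble, 39.03 and 37.7 CPM in Brd9, 50.8 and 50.0 CPM in Baf250A, and 30.7 and 30.9 CPM in Baf180 knockdown. It rose in Baf250A knockdown (log2 0.49, SE 0.13, adjusted p = 0.0235) and was higher there than in Baf180 knockdown (0.71, adjusted p = 0.00163). Pdha1, the E1 subunit that the kinases phosphorylate, was at 138 and 126 CPM in scramble, 167 and 114 CPM in Brd9, 194 and 226 CPM in Baf250A, and 101 and 132 CPM in Baf180 knockdown. It rose in Baf250A knockdown (0.67, SE 0.20, adjusted p = 0.0361), and its exons overlap those of Map3k15 on the opposite strand by 603 bases. Both calls in Baf250A knockdown were lost without scramble replicate 1 or 2 or Baf250A replicate 2, with highest adjusted p of 0.191 and 0.177. The 4 kinases together were at 34.4 CPM per kb in scramble (SD 0.817), 49.5 in Brd9 (SD 4.83), 51.1 in Baf250A (SD 2.18) and 46.2 in Baf180 knockdown (SD 2.66, n = 2 each), so all 6 knockdown libraries held more of this family than scramble. The summed level of the fibroblast markers was also higher in all 6: over 6 genes, with Lum at 0 in every library, it was at 144 to 149 CPM in scramble, 296 to 303 CPM in Brd9, 261 to 283 CPM in Baf250A and 351 to 359 CPM in Baf180 knockdown. Thy1 had at most 2 counts and Dpt at most 1 in any library, and 3 of the 6 genes were tested. Most of that sum was Col1a1, and Col1a1 and Pdgfra were called higher in each knockdown. Their part in the kinase values was not tested.

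Among the hypoxia genes, Hif1a, which encodes the regulated subunit of HIF-1, had the widest range, 87.8 and 85.3 CPM in scramble, 189 and 95.4 CPM in Brd9, 179 and 290.0 CPM in Baf250A, and 37.04 and 46.2 CPM in Baf180 knockdown. Its transcript has the lowest GC content of the tested members, 40.4%, and the order of the libraries for Hif1a resembled the order for the low-GC genes given above. It rose 2.71-fold in Baf250A knockdown (log2 1.44, SE 0.32, adjusted p = 0.0108), but 1.42-fold with the offsets (log2 0.51, adjusted p = 0.0289). It fell by 1.06 in Baf180 knockdown (SE 0.32, adjusted p = 0.0314), but by 0.33 with the offsets (adjusted p = 0.136), which ended the call. Between Baf250A and Baf180 knockdown it differed by 2.49 (adjusted p = 0.000317), or 0.83 with the offsets (adjusted p = 0.00153). Both calls against scramble were lost without scramble replicate 1 or 2, Baf250A replicate 2 (Baf250A call) or Baf180 replicate 1 (Baf180 call), with adjusted p up to 0.0642 and 0.166. These are transcript levels, whereas oxygen acts on the HIF-1 alpha protein.

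Vegfa, the angiogenic growth factor, was at 128 and 130.2 CPM in scramble, 177 and 149 CPM in Brd9, 218 and 228 CPM in Baf250A, and 112 and 158 CPM in Baf180 knockdown. Both Baf250A libraries were the highest, and the rise there was 0.79 (SE 0.17, adjusted p = 0.0108; 1.07 with the offsets), lost without scramble replicate 1 or 2 (highest adjusted p 0.0778). Bnip3, a receptor that marks mitochondria for removal, was at 18.7 and 19.5 CPM in scramble, 39.8 and 32.3 CPM in Brd9, 29.9 and 37.4 CPM in Baf250A, and 20.3 and 30.9 CPM in Baf180 knockdown. All 6 knockdown libraries exceeded scramble, with calls in Brd9 (0.92, SE 0.22, adjusted p = 0.034) and Baf250A knockdown (0.82, SE 0.22, adjusted p = 0.0241). With the offsets the call in Baf250A knockdown ended (0.21, adjusted p = 0.196) and one in Baf180 knockdown appeared (1.06, adjusted p = 0.000114, against 0.42 and 0.162 without), the transcript having a GC content of 41.6%. The calls without offsets were lost without scramble replicate 1 or 2, Brd9 replicate 1 (Brd9 call) or Baf250A replicate 2 (Baf250A call), with adjusted p up to 0.198 and 0.125. Exons of Bnip3 and of Hif1a overlap antisense transcripts, Gm45507 by 504 bases and Gm15283 by 330 bases.

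Egln3, the prolyl hydroxylase PHD3, itself a HIF target that limits HIF, was at 53.7 and 51.7 CPM in scramble, 36.3 and 38.0 CPM in Brd9, 65.4 and 62.1 CPM in Baf250A, and 72.0 and 69.9 CPM in Baf180 knockdown. The 4 groups did not overlap. It fell in Brd9 knockdown (log2 -0.51, SE 0.12, adjusted p = 0.0349) and rose in Baf180 knockdown (0.43, SE 0.12, adjusted p = 0.0261), and the value in Baf250A knockdown, 0.27, was called with the offsets alone (0.40, adjusted p = 0.00354). Each call against scramble was lost without scramble replicate 1 or 2, that in Brd9 knockdown also without any 1 Brd9 or Baf250A library (adjusted p up to 0.243) and that in Baf180 knockdown without Baf180 replicate 1 (up to 0.178), but the knockdowns differed from Brd9 knockdown in all 8 leave-one-out fits, Baf250A by 0.78 (adjusted p = 0.00236) and Baf180 by 0.93 (adjusted p = 0.00257, as -0.93 for Brd9 against Baf180). Ankrd37, a HIF target with ankyrin repeats, and P4ha1, a collagen prolyl hydroxylase, were not called in any comparison with scramble without the offsets, with log2 fold changes from 0.06 to 0.69. With them P4ha1 rose in Baf180 knockdown (0.41, adjusted p = 0.0127). Of the 6 hypoxia genes, 1 rose and 1 fell in Brd9, 3 rose in Baf250A, and 1 rose and 1 fell in Baf180 knockdown (all genes 6.45% and 3.57%, 15.5%, and 17.2% and 17.0%). With the offsets the counts were 1 higher (Bnip3) and 1 lower (Egln3) in Brd9, 3 higher (Vegfa, Egln3 and Hif1a) in Baf250A, and 3 higher (Bnip3, P4ha1 and Egln3) and 0 lower in Baf180 knockdown. The shares over all genes in that fit were 11.7% and 18.4%, 17.9%, and 18.0% and 20.2%.

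**Figure D4:**
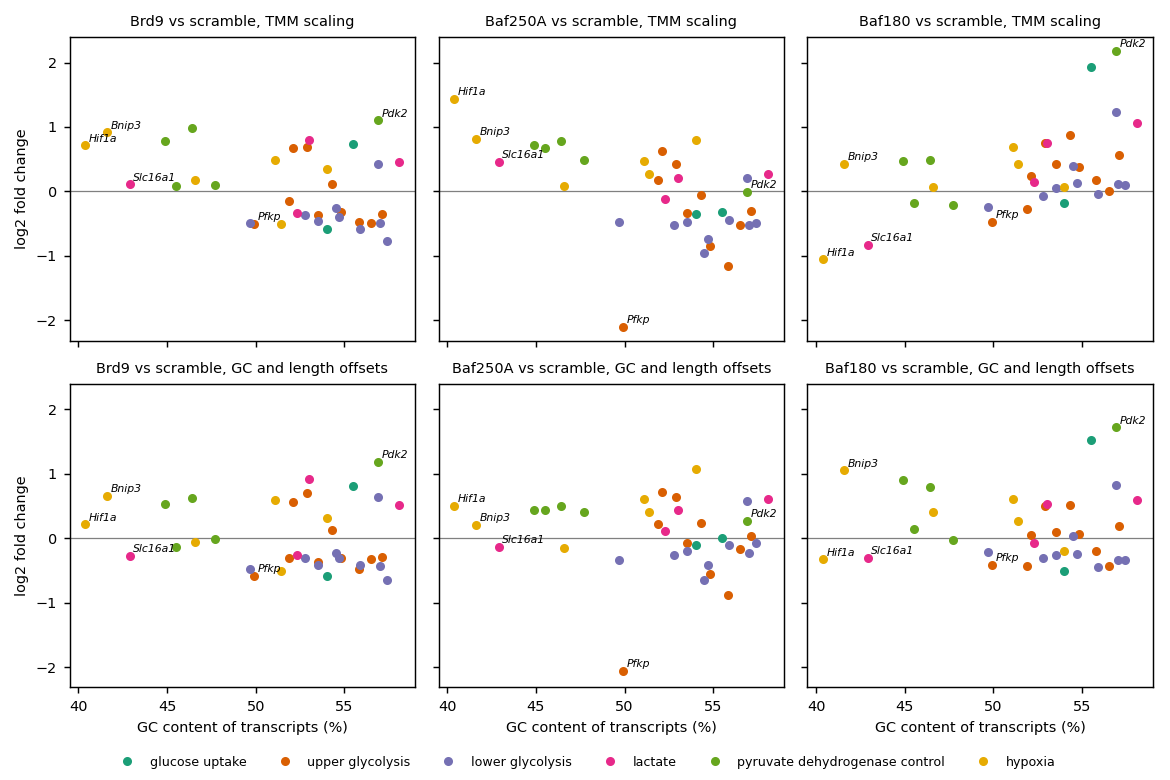
Log2 fold change against scramble (y axis) of the 36 tested members by the GC content of their transcripts in percent (x axis), coloured by step, for each knockdown (columns) without offsets (upper row) and with GC and length offsets (lower row). Hif1a, at the low-GC end, goes from 1.44 to 0.51 in Baf250A and from -1.06 to -0.33 in Baf180 knockdown between the rows, while Pfkp in Baf250A and Pdk2 in Baf180 knockdown stay far from 0 in both.

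The members' fold changes followed transcript GC content as those of all genes did. Over 36 members the Spearman rho was -0.31 in Brd9, -0.55 in Baf250A and 0.40 in Baf180 knockdown, beside -0.30, -0.53 and 0.59 over 12287 tested genes with a GC value. With the offsets the members' values were -0.17, -0.19 and -0.07. The points share 8 libraries and are no independent replicates. Glycolytic genes are rich in GC, with a median of 53.9% in upper and 54.7% in lower glycolysis, beside 50.5% over all tested genes. The median of the pyruvate dehydrogenase genes is 46.4%, but Pdk2 among them is at 56.9%. Of the 32 calls against scramble, 28 were also called in the same direction with the offsets. The 4 others were Pgam1 and Bnip3 in Baf250A and Slc16a1 and Hif1a in Baf180 knockdown.

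Direct comparisons between knockdowns asked whether the members differed beyond their common control. Between Baf250A and Baf180 knockdown 21 members were called, 6 higher and 15 lower in Baf250A (beside 62.5% of all tested genes, 30.8% higher and 31.7% lower). Between Brd9 and Baf180 knockdown 17 were called, 3 higher and 14 lower in Brd9, or 4 and 10 with upper-quartile scaling (beside 49.6%, 26.3% higher and 23.3% lower). Between Baf250A and Brd9 knockdown 7 were called, 1 higher and 6 lower in Baf250A, or 3 and 4 with RLE scaling (beside 25.0%, 10.0% higher and 15.0% lower). With the offsets 19 were called between Baf250A and Baf180 knockdown, 10 higher and 9 lower (all genes 54.8%, with 28.7% and 26.1%). Brd9 against Baf180 then gave 13, 4 higher and 9 lower (all genes 33.0%, with 14.0% and 19.0%), and Baf250A against Brd9 gave 16, 10 higher and 6 lower (all genes 44.1%, with 25.5% and 18.6%). Without the offsets the members' totals were 58.3%, 47.2% and 19.4% in the order above, near or below the share over all genes. By direction they leaned lower against Baf180 knockdown, with 25 of 36 members negative in Baf250A and 24 in Brd9. The median log2 fold changes there were -0.43 and -0.44, beside -0.05 and 0.02 for all tested genes. With the offsets these medians were 0.01 and -0.17, beside 0.03 and -0.03. Beyond the members given above, Hk1 was lower in Baf250A than in Baf180 knockdown (-1.33, adjusted p = 0.000484, and -0.69 with the offsets), as were Pfkfb4 (-1.23, adjusted p = 0.000332) and Eno2 (-1.34, adjusted p = 0.000549). Vegfa was higher there (0.73, adjusted p = 0.00565, and 1.27 with the offsets). Slc16a1 (1.29, adjusted p = 0.000585) and Slc16a3 (-0.80, adjusted p = 0.00971) also differed between these knockdowns, but by 0.17 and 0.01 with the offsets (adjusted p = 0.26 and 0.932).

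Genes around the pathway were read from lists of other members of the same routes, without the offsets except where stated. Over all genes 6.45% were called higher and 3.57% lower in Brd9, 15.5% and 14.0% in Baf250A, and 17.2% and 17.0% in Baf180 knockdown. Of 10 tested genes of the HIF machinery, none was called in Brd9 knockdown (0 by edgeR, 0 at an unadjusted p below 0.05, 0 by DESeq2). In Baf250A knockdown 1 was called higher and 1 lower. The former was Epas1, which encodes HIF-2 alpha, with 0 and 7 counts in scramble, 18 and 6 in Brd9, 49 and 49 in Baf250A, and 3 and 5 in Baf180 knockdown. It passed the filter on low counts only through the Baf250A libraries, so its call is no test, and its log2 fold change there ran from 2.61 to 8.56 in the leave-one-out fits. Cited2, which competes with HIF for its coactivator, fell by 0.47 (adjusted p = 0.0326). In Baf180 knockdown 2 rose and 2 fell, among them Cited2 (-0.79, adjusted p = 0.00371), Vhl, which marks HIF for destruction (0.59, adjusted p = 0.0144), and its partner Cul2 (-0.92, adjusted p = 0.0137, and -0.19 with the offsets, which ended the call).

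Of 28 other hypoxia targets, 4 rose and 1 fell in Brd9, 6 rose and 5 fell in Baf250A, and 7 rose and 4 fell in Baf180 knockdown, which is 17.9%, 39.3% and 39.3% of the list beside 10.0%, 29.5% and 34.2% of all tested genes. The collagen crosslinking enzyme Loxl2 had 1415 and 1307 counts in scramble, 346 and 348 in Baf250A and 503 and 582 in Baf180 knockdown, and fell by 2.13 (adjusted p = 1.68e-05) and 1.35 (adjusted p = 0.000208). In Baf250A knockdown the stress gene Ndrg1 fell by 1.27 (adjusted p = 0.000236). The vasodilator gene Adm had 7 and 2 counts in scramble and 39 and 47 in Baf250A knockdown, the group through which alone it passed the filter, with a log2 fold change of 2.46 to 4.17 in the leave-one-out fits. In Brd9 knockdown Rora (2.13, adjusted p = 0.00902) and Lox (1.10, adjusted p = 0.0173) rose and Stc2 fell (-1.09, adjusted p = 0.02). In Baf180 knockdown Angptl4 (1.41, adjusted p = 0.00125) and Ddit4 (0.79, adjusted p = 0.0031) rose.

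For sugar entry and regulatory enzymes outside the members, 15 of 21 were tested. In Baf250A knockdown 4 fell, among them the polyol pathway enzymes Sord (-0.93, adjusted p = 0.00194) and Akr1b3 (-0.84, adjusted p = 0.00758), in Baf180 knockdown 5 rose, among them Slc2a8 (1.28, adjusted p = 0.00431), and 1 fell, and in Brd9 knockdown 0 were called by edgeR (4 at an unadjusted p below 0.05, 3 by DESeq2). Among 13 tested genes around pyruvate, Brd9 knockdown again had 0 calls by edgeR (3 at an unadjusted p below 0.05, 2 by DESeq2). Pdp2, a phosphatase that reverses the kinases' action on pyruvate dehydrogenase, fell in Baf250A (-1.08, adjusted p = 0.00837) and Baf180 knockdown (-0.85, adjusted p = 0.0184). Pcx, pyruvate carboxylase, had 523 and 462 counts in scramble and 2068 and 1450 in Baf180 knockdown, a rise of 1.83 (SE 0.24, adjusted p = 0.000968).

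In the pentose phosphate pathway, 8 tested genes gave 0 calls in Brd9 (edgeR; 3 at an unadjusted p below 0.05, 1 by DESeq2), 1 rise and 2 falls in Baf250A, and 2 rises and 1 fall in Baf180 knockdown, with H6pd at -0.56 (adjusted p = 0.0156) and 0.74 (adjusted p = 0.00441) in the latter pair. Of 14 tested glycogen genes, 1 rose in Brd9 (Phkb, 0.83, adjusted p = 0.0342), 1 fell in Baf250A (Pygb, -0.93, adjusted p = 0.00597), and 1 rose (Pygm, 1.72, adjusted p = 0.00921) and 2 fell in Baf180 knockdown, among them Pgm2 (-1.01, adjusted p = 0.00157). All calls among the 5 serine synthesis genes were falls, 1 in Brd9, 2 in Baf250A and 3 in Baf180 knockdown (all genes 3.57%, 14.0% and 17.0% lower). With the offsets 4, 3 and 5 of them fell (all genes 18.4%, 17.4% and 20.2% lower). Among 18 citrate cycle genes, 3 fell in Brd9, 1 rose and 3 fell in Baf250A, and 2 rose and 2 fell in Baf180 knockdown, where Sdhd had 694 and 829 counts against 2284 and 2141 in scramble (-1.56, SE 0.13, adjusted p = 0.000109). With the offsets 8 citrate cycle genes fell in Brd9, 3 fell in Baf250A, and 2 rose and 4 fell in Baf180 knockdown. Of the calls named from these lists, those kept in every leave-one-out fit were Ndrg1, Sord, Pdp2 and Loxl2 in Baf250A, and Cited2, Loxl2, Angptl4, Ddit4, Slc2a8, Pcx, H6pd, Pgm2 and Sdhd in Baf180 knockdown, and the others, Epas1 and Adm aside, reached an adjusted p of at most 0.231 (Phkb).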

How the data were processed

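The 8 RNA-seq libraries of C2C12 cells were prepared and sequenced on a BGISEQ-500 by BGI, per the labels. The authors deposited 1 table of estimated counts per gene and library, not normalised, with another column for gene length in bases, per the file headers. Named in the submitters' processing notes, without roles or versions, are Bowtie2, HISAT2, RSEM, StringTie, Cufflinks, DESeq2 and the build mm10. Strand use in counting is not stated there. Groups came from the sample titles, and 0 columns of per-sample values were left unmapped.

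Estimated counts were rounded, filtered by filterByExpr (12420 genes left) and TMM-scaled, and all 8 libraries entered 1 edgeR 4.0.16 quasi-likelihood fit (R 4.3.3) with a factor of 4 groups. P-values were adjusted by Benjamini-Hochberg over all tested genes of a comparison, with calls below 0.05. SE is the absolute log2 fold change over the square root of F. CPM use TMM-adjusted totals. CPM per kb divide by the deposited length.

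Alternatives were DESeq2 1.42.0, scaling by RLE or upper quartile, an unfiltered fit, the 4 libraries of a comparison, leaving out each library, a replicate block, and loess offsets (span 0.3) on GC content and length, the GC content coming from GENCODE M21 transcripts for 98.95% of tested genes. The fits were tested on simulated counts. Leaving out the 2 libraries with the strongest GC trend was chosen after seeing the data. Members and lists were chosen with earlier results of these data known. Members called against scramble, and 10 fixed members whatever their result, are given by library, and from each other list at most 3 called genes with the lowest p. Totals were 17763062 to 20400855 counts, and no molecular identifiers are stated.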

Additional observations from a re-analysis of the deposited data

How the results depend on the processing

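Counts of members called depended on single libraries and on the GC offsets. In Brd9 knockdown against scramble the main count of 9 became 17 without the filter, 18 with GC and length offsets, 14 with the 4 libraries of the comparison and 14 without the 2 libraries with the strongest GC trend (an added setting), and ranged from 0 to 10 when 1 library was left out. In Baf250A knockdown the count of 15 became 7 without those 2 libraries and 3 to 16 in the leave-one-out fits, and in Baf180 knockdown the count of 8 became 17 with the offsets and 3 to 11. For Baf250A against Brd9 knockdown the 7 became 16 with the offsets, 4 with 4 libraries, 3 without the 2 libraries and 2 to 9. For Baf250A against Baf180 the 21 became 9 without the 2 libraries and 12 to 26, and for Brd9 against Baf180 the 17 became 7 and 2 to 25. The cause was not tested.

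The replicate numbers gave no pairing of the same sign across groups: deviations of same-numbered libraries correlated at -0.48 to 0.46 over the 6 pairs of groups. Scramble was at -0.05, 0.12 and 0.02 with Brd9, Baf250A and Baf180 knockdown. Among the knockdowns, Baf250A and Baf180 were at 0.46, and Brd9 was at -0.47 with Baf250A and -0.48 with Baf180. The source of this structure among the knockdown libraries was not tested. A replicate block gave 2, 11, 7, 4, 20 and 12 members in the 6 comparisons in the order above, and the offsets with the block gave 15 in Brd9, 13 in Baf180, 13 in Baf250A against Brd9 and 10 in Brd9 against Baf180.

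Signs turned under the offsets, without and with the block: in Baf250A against Baf180 for Slc2a1 (0.41 and 0.41), Gapdh (0.34 and 0.34), Pgam1 (0.0488 and 0.0488), Pkm (0.11 and 0.11), Slc16a3 (0.0121 and 0.0125), Pdk4 (-0.47 and -0.47) and Bnip3 (-0.85 and -0.85), in Brd9 against Baf180 for Pdk4 (-0.38 and -0.38) and Bnip3 (-0.39 and -0.39), and without the block for Pkm in Baf180 against scramble (-0.34). For Aldoa, Eno1 and P4ha1, named after their values under the offsets were seen, signs turned in Baf180 against scramble for Aldoa (-0.44 and -0.44) and Eno1 (-0.34, without the block), in Baf250A against Baf180 for Aldoa (0.265, without the block), Eno1 (0.27 and 0.27) and P4ha1 (-0.56 and -0.55), and in Brd9 against Baf180 for P4ha1 (-0.47 and -0.46). RLE and upper-quartile scaling, DESeq2, the unfiltered fit and the leave-one-out fits turned no sign of a named member that was called. With 2 libraries a group, a difference that was not called is not shown to be absent, and below about 20 counts (Slc2a3, Slc2a4, Aldoc, Pgam2) counting error adds to the spread.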
